A study of Bos taurus with 8 samples.

Results

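Cell junction genes were followed in bovine granulosa cells (GC), the cells that line the ovarian follicle and surround the oocyte. The members are 9 genes, namely the connexin *GJA1*, the claudins *CLDN1*, *CLDN5*, *CLDN11* and *CLDN12*, the tight junction proteins *OCLN* and *TJP1*, and the cadherins *CDH1* and *CDH2*. The genes were chosen with earlier results of these data known, and their rows were taken by the annotated gene symbol of the array. Each of the 9 genes had 1 transcript cluster, which is the set of probes that the array reads as 1 transcript, out of 24415 clusters on the array. Total RNA was measured on 8 Affymetrix bovine gene arrays, 1 per sample, in 4 samples at low oxygen level (LOL 1 to 4, 1% O2) and 4 samples at normal oxygen level (NOL 1 to 4, 21% O2). All 8 samples were primary GC from small to medium follicles of abattoir ovaries, and the cells had been frozen, thawed and grown on collagen without serum, with FSH, IGF-1 and androstenedione, and the oxygen level was set on day 6 and held for 48 h until harvest on day 8. A plate culture holds neither the oocyte nor the basement membrane and vessels of a follicle, and breed, animal age and pooling of ovaries are not given in the sources used here. Nor is it given whether the 4 samples at an oxygen level were separate cultures. The p-values therefore rest on the spread among these 8 samples, part or all of which may be technical.

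Cells are joined to each other by several kinds of junction. Gap junctions are channels built from connexins, which let ions and small molecules pass between neighbors, and in the follicle they couple GC to each other and to the oocyte. Tight junctions are strands of claudins and occludin held by scaffold proteins, which seal the space between cells, and adherens junctions are made of cadherins whose tails bind catenins and, through them, actin. The comparison of LOL with NOL asks which of these parts changed in transcript level when oxygen was low. Values are log2 signals as the authors deposited them, so that a difference of 1 is a 2-fold change. A gene passed the test where limma gave an adjusted p under 0.05, with the adjustment made over all clusters, and it was called differentially expressed where its fold was also over 2. Since probes differ in brightness, the signal of a gene does not say whether its transcript is more abundant than that of another gene, and a sum over a marker list is read only between LOL and NOL.

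The arrays separated by oxygen level. On the first principal component, which carried 73.6% of the variance, the LOL arrays lay at 33.91 to 39.83 and the NOL arrays at -37.64 to -36.42. LOL 3 stood apart on the second component, with a score of 26.24 against -10.94 to 5.76 in the other 7 arrays, and without LOL 3 the same 6 members passed the test as with it. Of 14 granulosa cell markers, 10 were lower and 1 was higher at LOL by the adjusted p, where 20.5% of all clusters were lower and 20.5% were higher. Called were 5 as lower and 1, *HSD17B1* at 3.83-fold, as higher, where 2.65% of all clusters were called lower and 2.22% higher. None of the 14 had a mean log2 signal under 4 in both groups. Their summed linear signal was 5720 to 6272 in LOL arrays and 10209 to 10560 in NOL arrays. Of 11 smooth muscle and fibroblast markers, 9 were higher and none was lower by the adjusted p (20.5% of all clusters in each direction), with summed linear signals of 4787 to 4958 at LOL and 3219 to 3570 at NOL. In this list 5 were called higher, where 2.22% of all clusters were, with *TAGLN* the largest at 8.89-fold. Of 6 theca cell markers, 3 were higher and none lower (20.5% of all clusters in each direction). These 3 were *INSL3*, *COL1A1* and *COL1A2*, of which *INSL3* alone was called, at 2.05-fold higher. *PTCH1*, *GLI1* and *CYP17A1* did not pass, and *CYP17A1* had mean log2 signals of 3.35 at LOL and 3.38 at NOL. In 2 of the 6 the mean log2 signal was under 4 in both groups. The summed linear signal of the 6 was 797 to 878 at LOL and 499 to 626 at NOL. Within it, *INSL3* averaged 356 at LOL and 175 at NOL. Of 11 leukocyte markers, 3 were higher and none lower (20.5% of all clusters in each direction), with sums of 113 to 132 at LOL and 101 to 110 at NOL. In 9 of these 11 the mean log2 signal was under 4 in both groups. The part of any of these marker lists in the junction results was not tested. In these whole cultures, fewer cells of a type and less RNA per cell cannot be told apart.

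The junction genes did not move in 1 direction. At LOL, *CLDN5*, *CLDN1*, *TJP1* and *CDH2* were higher, *CLDN11* and *GJA1* were lower, and *CLDN12*, *OCLN* and *CDH1* did not pass the test. *CLDN5* was the only one of the 9 members that was called. Thus 6 of 9 members passed the adjusted p, where 41.0% of all clusters passed it, and 1 of 9 was called, where 4.87% of all clusters were. By direction, 4 of 9 were higher and 2 of 9 were lower at the adjusted p, where 20.5% of all clusters were higher and 20.5% were lower. The LOL and NOL arrays did not overlap in the 6 members that passed, and they did not overlap in 39.4% of all clusters. The median log2 difference was -0.01 over the 9 members and 0.06 over all clusters. Since the members were chosen with earlier results known, these counts and shares are given without a test.

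**Figure D1:**
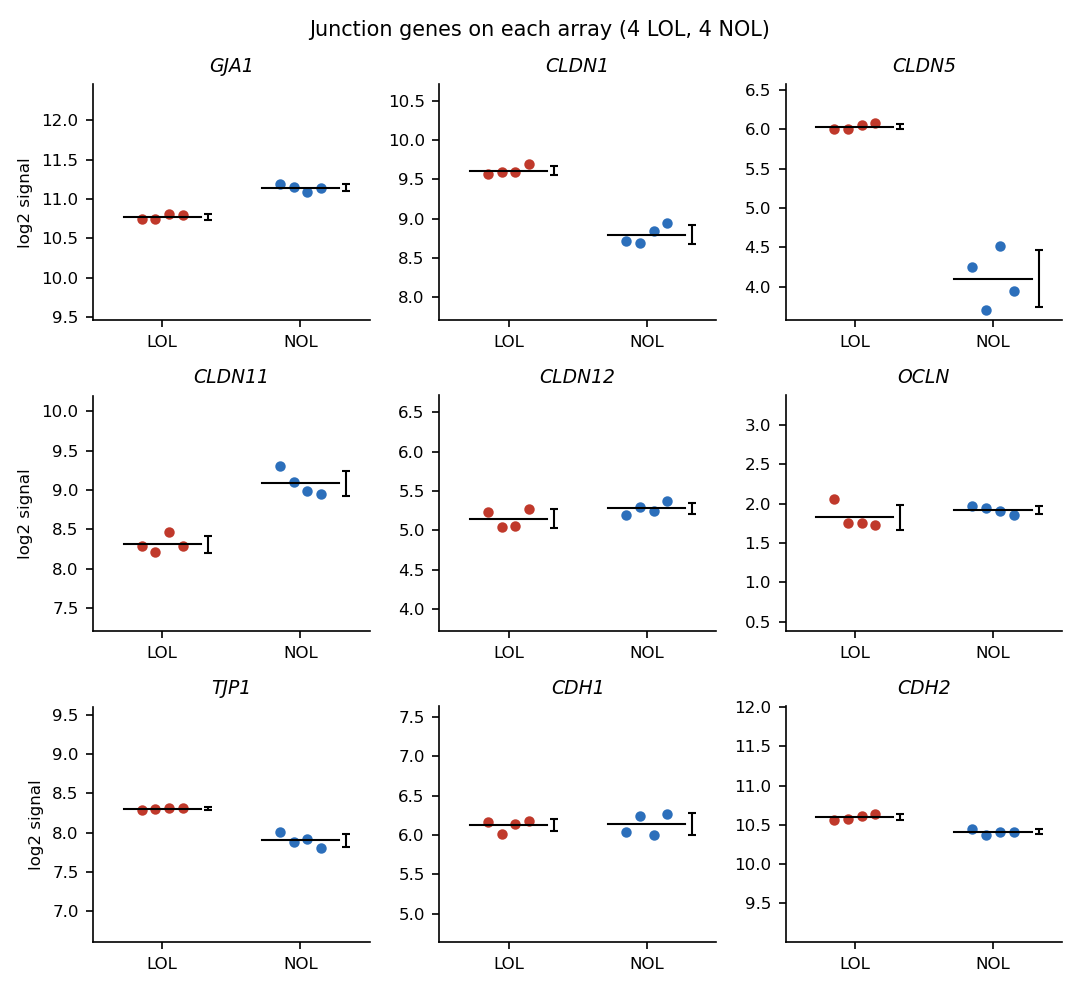
Log2 signal of each junction gene on every array, with LOL arrays in red and NOL arrays in blue. Points are single arrays, the horizontal line is the group mean and the bar at its side is 1 SD (n = 4); all panels span the same range on the log2 scale. The groups lie apart in *GJA1*, *CLDN1*, *CLDN5*, *CLDN11*, *TJP1* and *CDH2* and overlap in *CLDN12*, *OCLN* and *CDH1*, and the NOL arrays spread most in *CLDN5*.

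*GJA1* encodes connexin 43, the main connexin of GC. In transcript cluster 12899452, its log2 signals were 10.74, 10.74, 10.81 and 10.79 in LOL 1 to 4, against 11.19, 11.15, 11.09 and 11.14 in NOL 1 to 4. All LOL arrays thus lay below all NOL arrays, with a gap of 0.28 between the groups. *GJA1* was 1.29-fold lower at LOL, with a log2 difference of -0.37 (standard error 0.055, 95% interval -0.50 to -0.25, adjusted p = 3.7e-04 by limma). On the linear scale the signal averaged 1747 ± 43.2 at LOL and 2261 ± 64.3 at NOL (SD, n = 4 each). The change was thus past the spread of the arrays but well under 2-fold.

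Among the claudins, *CLDN5* had the largest difference of the 9 members. It is best known as the claudin of the blood vessel lining. In transcript cluster 12748152, its log2 signals were 6.00, 6.01, 6.05 and 6.08 in LOL 1 to 4, against 4.25, 3.70, 4.52 and 3.94 in NOL 1 to 4. The LOL arrays lay close together, whereas the NOL arrays were spread widely, with NOL 2 lowest and NOL 3 highest, and the gap between the groups was 1.48. *CLDN5* was 3.82-fold higher at LOL (log2 difference 1.93, standard error 0.15, 95% interval 1.60 to 2.27, adjusted p = 4.8e-06 by limma). By the size of its difference it was number 152 of the 24415 clusters. On the linear scale it averaged 65.6 ± 1.69 at LOL and 17.6 ± 4.35 at NOL (SD, n = 4 each). NOL 2 and NOL 4 had log2 signals under 4, where it is not known how far a signal lies above background. The log2 difference was 1.80 without NOL 2 and 2.07 without NOL 3.

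Since *CLDN5* is a vessel gene, it was set beside 15 other endothelial markers. Of these, 3 were higher at LOL at the adjusted p (*SOX17*, *TEK* and *ESAM*), a share near the 20.5% of all clusters that were higher, while none was lower and none was called. Their summed linear signal was 147 to 168 in LOL arrays and 135 to 143 in NOL arrays. The defining markers *PECAM1* and *CDH5* had mean log2 signals of 2.57 and 2.79 at LOL and 2.43 and 2.85 at NOL, and neither passed the test. In 12 of the 15 genes the mean was under 4 in both groups, and none was listed at 0. The part of endothelial cells in the *CLDN5* result was not tested.

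*CLDN1*, a claudin of epithelial barriers, was also higher at LOL. In transcript cluster 12678900, its log2 signals were 9.57, 9.59, 9.59 and 9.69 in LOL 1 to 4, against 8.71, 8.69, 8.84 and 8.95 in NOL 1 to 4. The groups were separated by a gap of 0.62. *CLDN1* was 1.76-fold higher at LOL (log2 difference 0.81, standard error 0.073, 95% interval 0.65 to 0.98, adjusted p = 1.2e-05 by limma) and did not reach the fold threshold. On the linear scale it averaged 782 ± 29.8 at LOL and 446 ± 38.0 at NOL (SD, n = 4 each).

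*CLDN11*, the claudin of myelin and of the barrier between Sertoli cells in the testis, moved the other way. In transcript cluster 12684080, its log2 signals were 8.28, 8.21, 8.46 and 8.28 in LOL 1 to 4, against 9.30, 9.10, 8.99 and 8.95 in NOL 1 to 4. LOL 3 was the highest LOL array and NOL 4 the lowest NOL array, and still 0.49 lay between them. *CLDN11* was 1.71-fold lower at LOL (log2 difference -0.78, standard error 0.090, 95% interval -0.98 to -0.58, adjusted p = 7.1e-05 by limma). The log2 ratio of *CLDN1* to *CLDN11* within an array, which does not depend on how arrays were scaled to each other by a constant, was 1.59 higher at LOL than at NOL. Set to the NOL mean, it lay between 1.42 and 1.70 in LOL arrays and between -0.30 and 0.29 in NOL arrays. This ratio was chosen after the values had been seen and is given without a test.

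*CLDN12* did not pass the test. In transcript cluster 12851470, its log2 signals were 5.23, 5.04, 5.06 and 5.27 in LOL 1 to 4, against 5.20, 5.30, 5.25 and 5.37 in NOL 1 to 4. The groups overlapped, with LOL 2 and LOL 3 below every NOL array and LOL 1 and LOL 4 among them. The log2 difference was -0.13, with a 95% interval of -0.30 to 0.036 (adjusted p = 0.192 by limma).

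**Figure D2:**
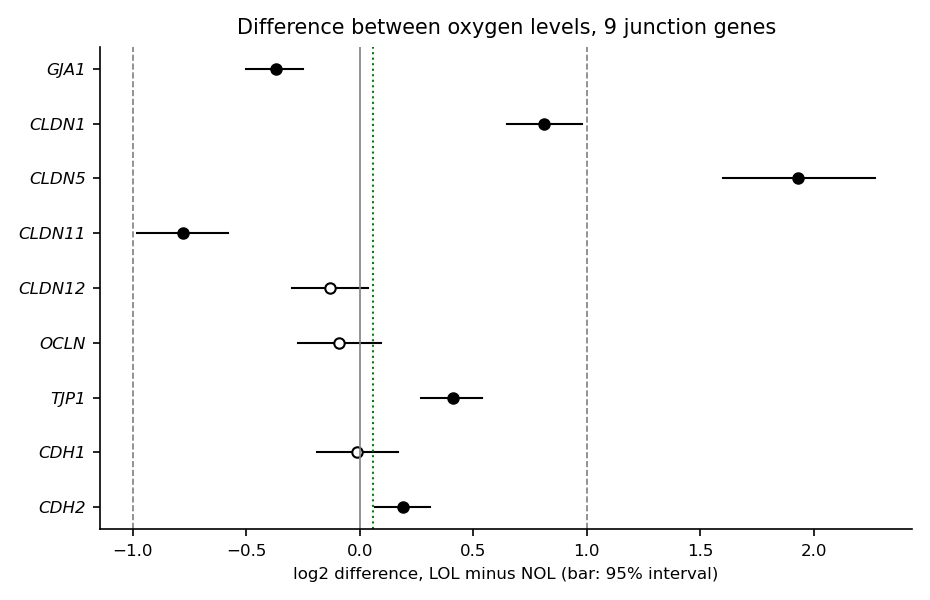
Log2 difference of each junction gene, LOL minus NOL, with its 95% interval from limma (n = 4 arrays each). Filled points passed the adjusted p and open points did not; dashed lines mark a 2-fold change and the dotted green line the median of all clusters at 0.06. *CLDN5* alone lies past 2-fold, at 1.93, *CLDN1* and *CLDN11* lie at 0.81 and -0.78, and the other members lie between -0.37 and 0.41.

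Occludin, *OCLN*, spans the membrane of tight junctions beside the claudins. In transcript cluster 12787357, its log2 signals were 2.06, 1.76, 1.75 and 1.73 in LOL 1 to 4, against 1.97, 1.94, 1.90 and 1.85 in NOL 1 to 4. LOL 1 was the highest and the other LOL arrays were the lowest of the 8, so the groups overlapped. All these signals lie below the lower quartile of their arrays, which was 2.42 to 2.52 at LOL and 2.36 to 2.38 at NOL. The log2 difference was -0.09 (95% interval -0.27 to 0.095, adjusted p = 0.419 by limma). Whether so low a signal is above background cannot be told from the values, and no fold is given.

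*TJP1* encodes ZO-1, a scaffold that ties claudins to actin and also binds connexin 43. In transcript cluster 12791835, its log2 signals were 8.29, 8.30, 8.32 and 8.32 in LOL 1 to 4, against 8.01, 7.88, 7.92 and 7.80 in NOL 1 to 4. The LOL arrays were nearly equal and all were above the NOL arrays, with a gap of 0.28. *TJP1* was 1.32-fold higher at LOL (log2 difference 0.41, standard error 0.061, 95% interval 0.27 to 0.54, adjusted p = 4.5e-04 by limma). On the linear scale it averaged 317 ± 3.29 at LOL and 240 ± 14.5 at NOL (SD, n = 4 each). The connexin and its scaffold thus differed in direction, and the log2 ratio of *TJP1* to *GJA1* within an array was 0.78 higher at LOL, a pair also chosen after the values had been seen.

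Of the cadherins, *CDH2* encodes N-cadherin, the main classical cadherin of GC, and *CDH1* encodes E-cadherin of epithelia. For *CDH2* in transcript cluster 12807443, the log2 signals were 10.56, 10.58, 10.61 and 10.64 in LOL 1 to 4, against 10.45, 10.37, 10.41 and 10.41 in NOL 1 to 4. All LOL arrays were above all NOL arrays, but the gap was only 0.11. *CDH2* was 1.14-fold higher at LOL (log2 difference 0.19, standard error 0.054, 95% interval 0.067 to 0.31, adjusted p = 0.019 by limma). This was the smallest difference of the 6 members that passed, and it did not pass with median centring of the arrays (0.12, adjusted p = 0.124), with quantile normalization (0.12, adjusted p = 0.0984), with the replicate number as a block (0.19, adjusted p = 0.0542) or without LOL 4 (0.17, adjusted p = 0.0519). The log2 ratio of *CDH2* to *GJA1* within an array, again chosen after the values had been seen, was 0.56 higher at LOL. Set to the NOL mean, it was 0.53 to 0.58 in LOL arrays and -0.048 to 0.053 in NOL arrays.

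*CDH1* was nearly level between the groups. In transcript cluster 12749523, its log2 signals were 6.17, 6.02, 6.14 and 6.18 in LOL 1 to 4, against 6.04, 6.24, 6.00 and 6.27 in NOL 1 to 4. The NOL arrays enclosed the LOL arrays. The log2 difference was -0.01 with a 95% interval of -0.19 to 0.17 (adjusted p = 0.932 by limma), and its sign turned under quantile normalization and when some single arrays were left out. Other epithelial markers were set beside it. Of 12 measured, 6 passed as higher at LOL, none as lower, and none was called, where 20.5% of all clusters passed as higher and 20.5% as lower. In 9 of the 12 genes the mean log2 signal was under 4 in both groups. The list had a summed linear signal of 172 to 182 in LOL arrays and 117 to 129 in NOL arrays. Much of that difference came from *CDH3*, which also belongs to the cadherins below and averaged 39.2 at LOL and 19.8 at NOL, and from the mesothelial gene *MSLN*, which averaged 45.4 at LOL and 27.4 at NOL. The other genes of the list that passed as higher were *KRT7*, *UPK3B*, *PAX8* and *ESRP2*, with log2 differences of 0.33, 0.34, 0.32 and 0.38. *EPCAM*, which defines epithelial cells, had mean log2 signals of 1.72 at LOL and 1.62 at NOL and did not pass. The part of epithelial cells in the *CDH1* result was not tested.

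**Figure D3:**
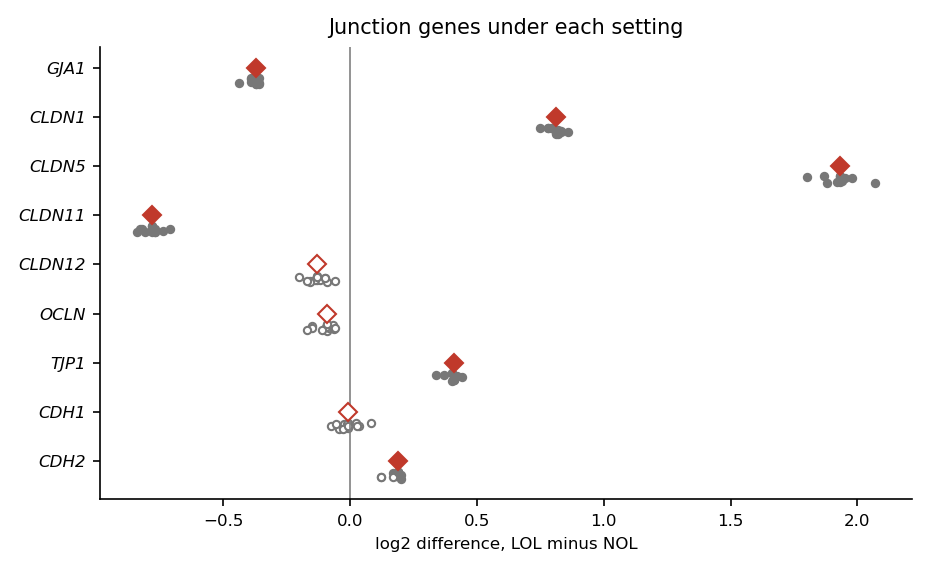
Log2 difference, LOL minus NOL, of each junction gene as reported (red diamonds) and under each of the other settings run (grey circles, drawn lower), which include leaving out each array in turn. Filled symbols passed the adjusted p and open ones did not. *CDH2* is the member that has both kinds, *CDH1* lies on both sides of 0, and *CLDN5* ranges from 1.80 to 2.07.

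To see the members among their relatives, 9 lists of other junction genes and of factors that act on them were read, with 169 symbols of which 148 had a cluster of their own. Of these genes, 38 were higher and 28 lower at LOL by the adjusted p (20.5% of all clusters in each direction), while 82 missed it. That is 44.6% past the test, where 41.0% of all clusters passed it. Called were 10 of 148, or 6.76%, of which 5 were higher and 5 lower, where 2.22% of all clusters were called higher and 2.65% lower. The median log2 difference of the 148 genes was 0.11, beside 0.06 over all clusters. The counts of each list below are read beside these same shares of all clusters.

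Of 17 other connexins and pannexins, 4 were higher and 3 lower (20.5% of all clusters in each direction). The 1 called gene was lower. *GJA4*, which encodes connexin 37, the connexin of the gap junctions between oocyte and GC in the mouse, had log2 signals of 5.90, 5.51, 5.77 and 5.61 in LOL 1 to 4, against 7.01, 7.24, 7.24 and 7.03 in NOL 1 to 4. It was 2.70-fold lower at LOL (log2 difference -1.43, standard error 0.098, adjusted p = 2.1e-06 by limma), a larger difference than the -0.37 of *GJA1*. *GJA5* (connexin 40) and *PANX1* (pannexin 1, a channel protein) were lower too, by log2 differences of -0.36 and -0.44. The 4 genes that were higher (*GJA3*, *GJA10*, *GJD4* and *PANX3*) had mean log2 signals of 1.86 to 4.35 at LOL and 1.49 to 3.99 at NOL, and of these *GJA3* and *PANX3* missed the threshold under 9 and 10 of the other settings. In 12 of the 17 genes the mean was under 4 in both groups. *GJC1* and *PANX2* were the brightest genes short of the threshold, with differences of 0.070 and 0.065.

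Of 9 genes whose proteins bind, phosphorylate or turn over connexin 43, 3 were higher (20.5% of all clusters) and none was lower or called. These were the kinase *SRC*, with a log2 difference of 0.46 (adjusted p = 1.2e-04), the matricellular protein *CCN3*, with 0.61 (adjusted p = 5.0e-04), and the ubiquitin ligase *NEDD4*, with 0.28 (adjusted p = 0.0026). *CSNK1D* and *CAV1*, encoding casein kinase 1 delta and caveolin 1, did not pass, at -0.065 and 0.068.

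Of 17 other claudins, 3 were higher (*CLDN3*, *CLDN9* and *CLDN15*), where 20.5% of all clusters were, and none was lower or called. The difference was 0.38 on the log2 scale in *CLDN9* (adjusted p = 0.00154 by limma). It was 0.45 in *CLDN3* (adjusted p = 0.00845), in which the groups overlapped. *CLDN15* was at 0.31 (adjusted p = 0.0434) and missed the threshold under 8 of the other settings. *CLDN19* and *CLDN14* were the brightest genes short of the threshold, with differences of 0.27 and 0.16. In 13 of the 17 the mean log2 signal was under 4 in both groups, and the list's median difference was 0.16. Low signals as a whole were somewhat higher on LOL arrays, as the quartiles given with *OCLN* show. Among all claudins measured, *CLDN5* alone was called.

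Of 28 other tight junction proteins and scaffolds, 7 were higher, 8 were lower (20.5% of all clusters in each direction) and 1 was called. That 1 was *PATJ*, a polarity scaffold, with mean log2 signals of 6.30 ± 0.033 at LOL and 5.05 ± 0.069 at NOL (SD, n = 4 each). It was 2.37-fold higher at LOL (log2 difference 1.25, standard error 0.059, adjusted p = 2.3e-07 by limma). *AMOTL2*, an angiomotin that binds YAP, was just under the fold threshold at 0.98, and *JAM2* and *F11R*, junctional adhesion molecules B and A, differed in direction, at 0.70 and -0.59. *LSR* and *PARD3* were the brightest genes short of the threshold, with differences of -0.19 and -0.025, and a second cluster of *LSR* passed, at -0.27.

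Of 21 other cadherins, 6 were higher and 5 lower (20.5% of all clusters in each direction), and the 3 called genes were lower. *CDH20* was at least 3.10-fold lower at LOL, with mean log2 signals of 2.97 ± 0.11 at LOL and 4.60 ± 0.054 at NOL (SD, n = 4 each, adjusted p = 1.3e-07 by limma). The fold is a lower bound because the signal at LOL is under 4. *CDH12*, which had strong signals of 7.99 ± 0.094 at LOL and 9.28 ± 0.051 at NOL, was 2.44-fold lower (adjusted p = 3.5e-07). *CDH6*, a cadherin of kidney and other tissues, was 2.14-fold lower (adjusted p = 9.1e-05), with LOL 1 lying above the other LOL arrays. *CDH3*, P-cadherin, lay just under the fold threshold, with mean log2 signals of 5.29 at LOL and 4.30 at NOL and a difference of 0.99. The brightest genes short of the threshold were *CDH11* and *CDH17*, at -0.070 and 0.26. In 11 of the 21 the mean was under 4 in both groups.

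Of 16 catenins and other adherens junction proteins, 7 were higher and 4 lower (20.5% of all clusters in each direction). The actin anchor vinculin, *VCL*, was 1.43-fold higher, and *CTNNA2*, an alpha-catenin otherwise known from neurons, was 2.24-fold higher (log2 difference 1.17, standard error 0.065, adjusted p = 5.6e-07 by limma). Beta-catenin, *CTNNB1*, which binds the tail of cadherins and also acts in WNT signaling, was 1.20-fold lower (log2 difference -0.26, adjusted p = 0.00334). The nectins are adhesion molecules that recruit cadherins to new contacts. *NECTIN1* was 3.15-fold lower, with mean log2 signals of 5.71 ± 0.17 at LOL and 7.37 ± 0.076 at NOL (SD, n = 4 each, adjusted p = 5.1e-07 by limma), and *NECTIN3* was 1.82-fold lower. *JUP* (plakoglobin) and *CTNND1* (p120 catenin) did not pass, at 0.022 and -0.075, and the sign of *JUP* turned under median centring and without NOL 1 or LOL 1.

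Desmosomes are the junctions that hold keratin filaments. Of 12 of their genes, 3 were lower and 1 was higher (20.5% of all clusters in each direction), and none was called. The desmosomal cadherins *DSC2* and *DSG2* were lower by log2 differences of -0.78 (adjusted p = 1.7e-04) and -0.62 (adjusted p = 4.4e-05), and *PKP2*, a plaque protein, by -0.48. *PKP3* was the 1 gene that was higher, with low mean log2 signals of 3.61 at LOL and 3.24 at NOL. The brightest genes short of the threshold were *PERP* and *PKP1*, at 0.085 and 0.35. In 7 of the 12 the mean was under 4 in both groups.

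Of 18 protocadherins and large cadherins, 5 were higher and 3 lower (20.5% of all clusters in each direction). The 2 called genes were higher. *PCDH17* was at least 3.93-fold higher at LOL, with mean log2 signals of 5.92 ± 0.079 at LOL and 3.94 ± 0.21 at NOL (SD, n = 4 each, adjusted p = 3.7e-07 by limma), and *FAT4* was at least 2.17-fold higher (adjusted p = 2.2e-06). The brightest genes short of the threshold were *FAT1* and *CELSR1*, at 0.12 and 0.26. In 8 of the 18 the mean was under 4 in both groups.

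**Figure D4:**
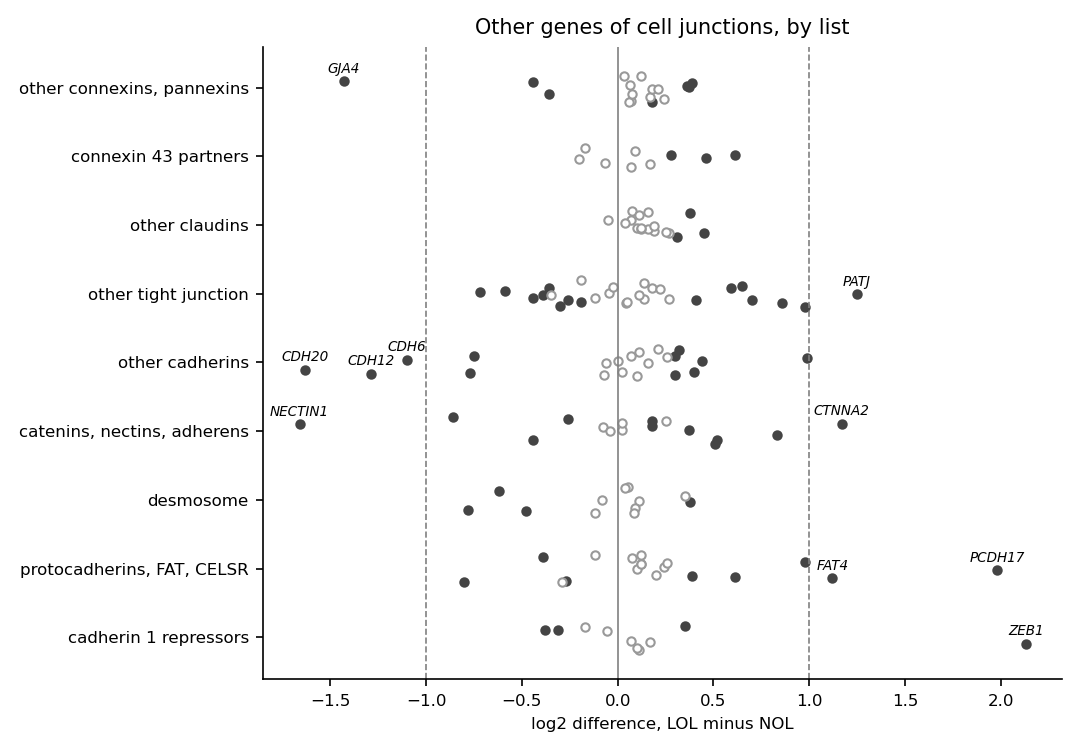
Log2 difference, LOL minus NOL, of 148 other junction genes and cadherin repressors, 1 point per gene and 1 row per list, with points shifted at random within a row. Filled points passed the adjusted p, open points did not, dashed lines mark a 2-fold change and the called genes are named. Called genes lie on both sides, from *NECTIN1* at -1.66 to *ZEB1* at 2.13.

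The last list holds 10 transcription factors that repress *CDH1* in epithelial cells. Of these, 2 were higher and 2 lower (20.5% of all clusters in each direction). *ZEB1* was the called one. Its log2 signals were 7.33, 7.27, 7.24 and 7.42 in LOL 1 to 4, against 4.94, 5.21, 5.25 and 5.33 in NOL 1 to 4. *ZEB1* was 4.38-fold higher at LOL (log2 difference 2.13, standard error 0.089, adjusted p = 1.2e-07 by limma), while *CDH1* had a difference of -0.01. Its relative *ZEB2* was 1.30-fold lower (log2 difference -0.38, adjusted p = 0.00144), with a second cluster at -0.41. The brightest genes short of the threshold were *SNAI2* and *TCF3*, at 0.11 and -0.17. In 5 of the 10 the mean was under 4 in both groups.

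Lastly, the clusters whose pattern over the 8 arrays was most like that of *CLDN5*, the largest rise among the members, were found by the root mean square difference of their log2 signals once each cluster's mean was taken off. Among 18457 clusters with 1 gene name, these were *SNX7* (0.15), *ACER2* (0.17) and *MBOAT4* (0.19), all higher at LOL by log2 differences of 1.95 to 2.05. Those most like *CLDN11*, the largest fall among the members, were *ANTXR2* (0.064), *H2AZ1* (0.066) and *ACSS3* (0.070), all lower at LOL by -0.84 to -0.78. A direction and size near those of the member follow from how these clusters were picked and are no separate result.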

How the data were processed

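The authors made the deposited log2 signals from Affymetrix Bovine Gene 1.0 ST arrays with RMA (robust multichip average), whose version is not given in the sources used here. RMA subtracts a modeled background, brings the arrays to a common distribution and combines the probes of each transcript cluster, which can shrink differences at low signal. Values are rounded to 2 decimals and lie between 0.08 and 12.42. The labels give each sample's oxygen level, which set its group. All 24415 clusters were compared between LOL and NOL in limma 3.58.1 (R 4.3.3) with a linear model of 2 groups and moderated variances, two-sided, and p-values were adjusted by the Benjamini-Hochberg method over all clusters. The fit was tested on simulated data. Arrays have no counting depth, so precision is limited by their number (n = 4 per group), and the values come with no measure of background. Where the lower group had a mean log2 signal under 4, the fold is given as a lower bound.

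Clusters were named through the array's annotation table, with 18457 clusters of 1 name, 688 of several and 5270 of none, and a cluster with several names was not used. For a gene with several clusters, the one with the highest mean was used. Coordinates and sequences were not used here. Named from each list were up to 4 called genes with the largest change and up to 2 of the highest signal among those that missed the threshold, or up to 2 with the smallest adjusted p where none was called. Other list genes named were chosen after their values were seen. The members and lists were chosen with earlier results of these data known. The alternatives were a fit without moderation, a variance prior with trend, median centring, quantile normalization, a filter on signals under 4, the replicate number as a block, the mean of a gene's clusters, and leaving out each array.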

Additional observations from a re-analysis of the deposited data

Results flagged for a closer look

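Each group of 4 arrays was searched for an array whose distance from its nearest neighbor exceeded, as a share of the whole range, Dixon's 95% critical value, which chance gives in about 1 of 20 groups. Among 148 groups (the 9 members and 65 of the other genes named in the text, each at LOL and NOL), 9 had such an array. In *CLDN1*, LOL 4 had a log2 signal of 9.69, while the other LOL arrays had 9.57 to 9.59. In *OCLN*, LOL 1 had 2.06, while the others had 1.73 to 1.76. Without LOL 1, *OCLN* had a log2 difference of -0.17 (adjusted p = 0.0651 by limma). In *SRC*, LOL 1 had 5.76 (others 5.87 to 5.88), and in *CDH6* LOL 1 had 5.02 (others 4.66 to 4.68). In *CDH17*, LOL 4 had 4.11 (others 3.72 to 3.76), and in *CELSR1* LOL 3 had 4.43 (others 3.99 to 4.05). In *CLDN15*, LOL 3 had 4.10 (others 3.60 to 3.65). In *JUP*, NOL 1 had 8.20, while the other NOL arrays had 8.41 to 8.45, and in *PKP2* NOL 1 had 4.99 (others 4.65 to 4.70).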

How the results depend on the processing

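Under the 15 other settings, *GJA1*, *CLDN1*, *CLDN5*, *CLDN11* and *TJP1* kept their direction and stayed past the adjusted p, and *CLDN12* and *OCLN* stayed negative and did not pass (*OCLN* could not be fitted under the filter on low signals). Without single arrays, *CLDN5* lay between 1.80 and 2.07 and *CDH2* between 0.17 and 0.20. *CDH2* did not pass with median centring (0.12) or quantile normalization (0.12). Median centring moves every difference by the same amount, and the median over all clusters went from 0.06 to -0.005. Under quantile normalization that median was 0.022, and the cause of the *CDH2* change there was not tested. *CDH1* was at 0.084 under quantile normalization and at -0.056 to 0.034 without single arrays. *PANX2* turned to -0.018 and *PARD3* to 0.029 under quantile normalization. *JUP* turned to -0.043 under median centring and lay between -0.035 and 0.048 without single arrays. *CDH5* was at 0.089 as the mean of its clusters and at -0.21 to 0.020 without single arrays. *GJA3*, *PANX3* and *CLDN15*, at low signal, missed the threshold under 9, 10 and 8 settings. In the other direction, *LSR*, *TCF3* and *CLDN19* passed under 4 settings each, *PKP1* and *CELSR1* under 2 each and *PECAM1* under 1. *CDH3* and *AMOTL2*, just under the fold threshold as reported, were called under 4 and 3 settings. The number of members past the test was 5 to 6, and that of the wider lists 58 to 66, with 10 to 13 called. Of all clusters at the adjusted p, 5017 were higher and 4999 lower, but 3585 and 5693 under median centring.

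The labels give both groups the replicate numbers 1 to 4. Deviations of same-numbered arrays from their group means over all clusters were weakly correlated (r = -0.0268, 0.0178, 0.114 and 0.0255). For arrays of unlike number r was -0.106 to 0.0759. Whether same-numbered arrays shared a culture or a batch cannot be told from these values. With the replicate block, *CDH2* had 0.19 (adjusted p = 0.0542), 5 members passed, and 542 clusters were called higher and 648 lower, beside 542 and 647 without it. Low signals limit *OCLN* and most other claudins and connexins. They also limit many of the other cadherins, desmosome genes, protocadherins and cadherin repressors.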
